A study of Mus musculus with 6 samples.

Results

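Slc13 carriers and the genes of N-acetylaspartate metabolism were examined in sorted mouse astrocytes as 9 genes of the 45777 listed in the expression table. They were taken by gene symbol and comprise the plasma membrane carriers Slc13a3, Slc13a4 and Slc13a5, the enzymes Nat8l, Rimkla, Rimklb, Folh1 and Aspa, and the receptor gene Grm3. The set was chosen by the values of Slc13a3, known beforehand to be lower with STZ in these same 6 samples, together with genes of the same metabolic route. The differences between STZ and vehicle for these genes are therefore a description and support no claim. All 9 genes had reads in every sample and passed the filter on low counts, which asked for at least 1 count in each sample.

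The astrocytes came from male Aldh1l1-CreERT2; tdTomato fl/fl mice of C57BL/6 background, although the sample labels give the genotype as WT. All of these mice received tamoxifen (75 mg/kg on 5 days). It turned on a red reporter, tdTomato, wherever the promoter of the astrocyte gene Aldh1l1 was active. This was done before the treatment described next, so the sort follows the activity of that promoter at that earlier time. Mice of 8 weeks received 1 injection of streptozotocin (STZ, 150 mg/kg), which destroys pancreatic beta cells and so raises blood glucose, or of citrate buffer alone (vehicle), and brains were taken 21 days later. STZ-treated mice entered the study only if their fasting blood glucose had passed a set limit. Each sample pooled the cells of 3 mice, with 3 samples per group. Total counts ranged from 52529048 to 58749115 per sample. Scaled by these totals alone, without the normalization of the CPM values below, 3 counts corresponded to between 0.0511 and 0.0571 CPM (counts scaled to a common library size). This floor covers counting error only.

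N-acetylaspartate is one of the most abundant small molecules of the brain. Neurons make it from aspartate and acetyl-CoA with the enzyme encoded by Nat8l, and the ligases encoded by Rimkla and Rimklb join it to glutamate to give the dipeptide N-acetylaspartylglutamate (NAAG). NAAG released from neurons acts on the metabotropic glutamate receptor encoded by Grm3 and is cleaved at the astrocyte surface by the peptidase encoded by Folh1, while Aspa, the aspartoacylase mutated in Canavan disease, splits N-acetylaspartate in oligodendrocytes. Carriers of the Slc13 family use the sodium gradient to bring in dicarboxylates and N-acetylaspartate (Slc13a3), sulfate (Slc13a4) or citrate (Slc13a5).

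The sorted cells carried high levels of astrocyte markers, with a summed level of the 8 astrocyte markers between 5480 and 6349 FPKM (fragments per kilobase of transcript, scaled to sequencing depth) with vehicle and between 5589 and 6183 FPKM with STZ. RNA of other cell types was present as well. Ttr, a choroid plexus gene, had a mean of 9152 FPKM over the 6 samples, and the 6 choroid plexus markers together ranged from 4309 to 12936 FPKM with vehicle and from 6958 to 11818 FPKM with STZ. The 10 oligodendrocyte markers together ranged from 350.3 to 869 FPKM with vehicle and from 460 to 1270.1 FPKM with STZ. The summed markers of microglia (129 to 192 FPKM with vehicle, 126 to 180.4 with STZ), pericytes (29.8 to 47.1 and 34.1 to 49.7), meningeal fibroblasts (9.65 to 16.3 and 11.3 to 18.0) and neurons (12.3 to 20.7 and 16.1 to 24.7) overlapped between the groups. The markers with the highest mean in each list were Aldoc (2294 FPKM) for astrocytes, Cnp (183) for oligodendrocytes, C1qa (50.5) for microglia, Cldn5 (31.7) for endothelium, Vtn (22.4) for pericytes, Col1a2 (6.398) for meningeal fibroblasts and Stmn2 (8.23) for neurons. None of the markers examined was at 0 in every sample. In such bulk samples, fewer cells of a type and less RNA per cell cannot be told apart.

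Per transcript length, Grm3 stood highest of the 9 genes, at 117 FPKM ± 18.4 (SD, n = 6), and its lowest sample, at 84.8 FPKM, was above every sample of every other member of the set. Folh1 came next at 36.0 FPKM ± 2.37 (SD, n = 6). Slc13a4 at 16.1 ± 5.69, Aspa at 12.4 ± 3.29, Slc13a3 at 11.9 ± 4.38 and Slc13a5 at 11.01 FPKM ± 0.768 (SD, n = 6) had overlapping ranges from each neighbour to the next, so their order was not set beyond their spread. Rimklb had 4.98 FPKM ± 0.343, Nat8l 3.29 ± 0.392 and Rimkla 1.098 ± 0.110 (SD, n = 6), and these levels did not overlap. The surface receptor and peptidase for NAAG thus had the highest levels of the set in these cells, and the synthetic enzymes the lowest. TPM placed the 9 genes in the same order.

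Among the carriers, Slc13a3 (NCBI gene 114644, GRCm38 chromosome 2, 165405295 to 165473197), the sodium-dependent carrier of dicarboxylates, was lower in the STZ group. Its normalized level was 59.8, 52.9 and 53.8 CPM in the vehicle samples and 26.9, 28.2 and 25.2 CPM in the STZ samples. Each STZ sample lay below each vehicle sample, and within each group the highest sample was at most 1.13 times the lowest. The means were 55.5 CPM ± 3.77 (SD, n = 3) with vehicle and 26.8 CPM ± 1.51 (SD, n = 3) with STZ, so the STZ mean was 48.3% of the vehicle mean, a log2 fold change of -1.05 (standard error 0.083). These are the values for which the gene was chosen. Slc13a3 was 1 of the 5 genes called by edgeR's quasi-likelihood test among 22337 (adjusted p = 0.0377 and fold change over 1.5), a background of 0.0224%, of which 0.0134% lower and 0.00895% higher with STZ. DESeq2 called 234 genes by the same rule (1.05%), of which 0.394% lower and 0.654% higher, Slc13a3 again among the lower. With any sample left out the log2 fold change stayed between -1.098 and -0.997, while the adjusted p from edgeR lay between 0.0775 and 0.252, past the threshold in none of the 6 fits. With the replicate number as a block the adjusted p was 0.517, and edgeR called 0 genes.

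**Figure D1:**
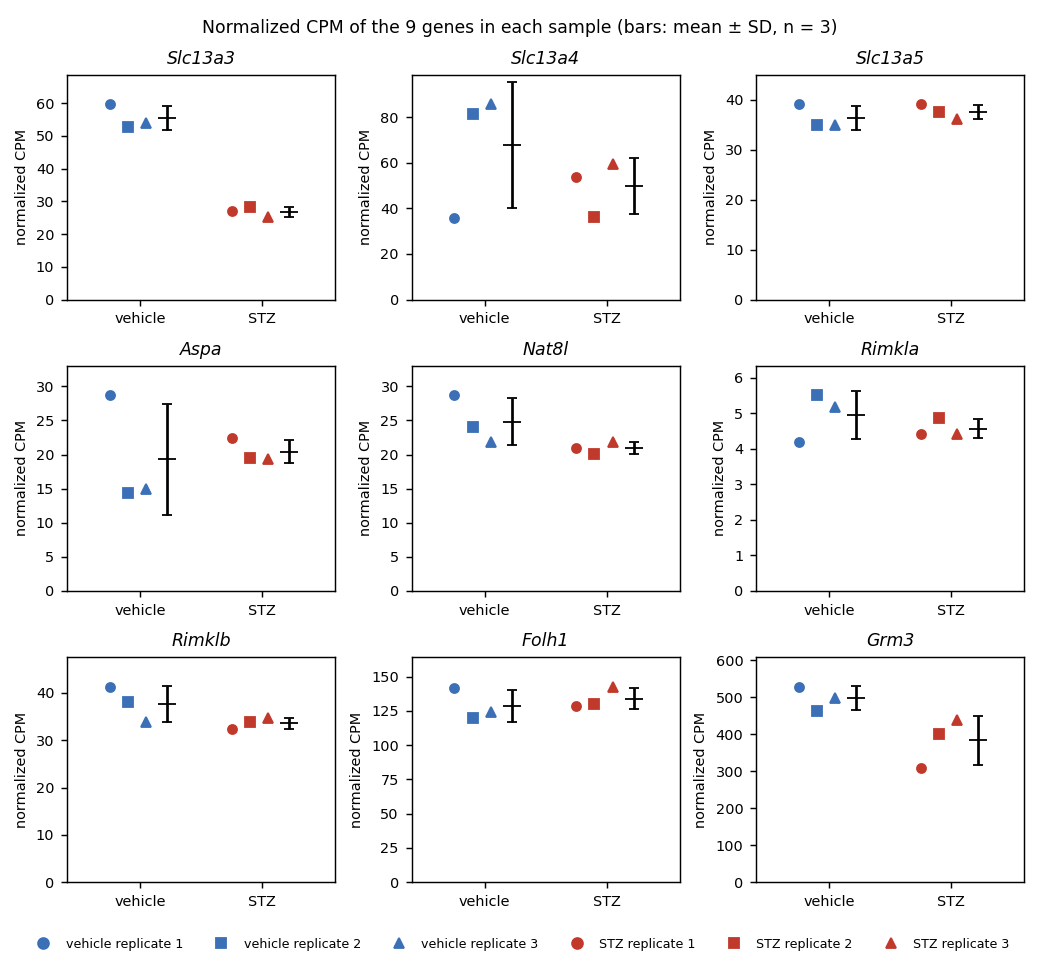
Normalized CPM (vertical axes, from 0) of the 9 genes in each of the 3 vehicle and 3 STZ samples, one panel per gene, with the mean ± SD of each group beside the points. The groups stand apart for Slc13a3 and, more narrowly, for Grm3, and overlap for the other 7 genes.

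A long noncoding RNA gene, Gm14437 (chromosome 2, 165442186 to 165457339), lies within Slc13a3. It had 10, 11 and 4 counts in the vehicle samples and 0 counts in each STZ sample, which allows up to 3 counts there. Whether reads were assigned by strand is not given in the sources used here, and these reads amount to 0.181% of those of Slc13a3, so adding them left the log2 fold change of Slc13a3 at -1.05. Gm14437 was not tested, because of its counts of 0.

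Slc13a5 (NCBI gene 237831, chromosome 11, 72241990 to 72267295), the citrate carrier, had 39.2, 34.9 and 35.0 CPM with vehicle and 39.0, 37.5 and 36.2 CPM with STZ. The groups overlapped, with a log2 fold change of 0.05 (standard error 0.0793; edgeR adjusted p = 0.854). In CPM it had the narrowest range of the 9 genes, its highest sample being 1.12 times its lowest over all 6. This did not hold in FPKM, where Folh1 (36.0 ± 2.37) varied less for its mean than Slc13a5 (11.01 ± 0.768; SD, n = 6). The lncRNA gene Gm34252 lies within Slc13a5 and had reads amounting to 6.53% of it.

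Set against each other within a sample, the dicarboxylate and citrate carriers differed in their order between the groups. The level of Slc13a5 divided by that of Slc13a3 (both in FPKM) was 0.685, 0.654 and 0.672 in the vehicle samples and 1.46, 1.36 and 1.47 in the STZ samples. Slc13a3 was thus the higher of the pair in every vehicle sample and the lower in every STZ sample. Of the summed FPKM of the 3 carriers, Slc13a3 made up 44.5%, 32.2% and 31.5% with vehicle and 23.1%, 28.03% and 21.3% with STZ. The ratio and the shares rest on the same Slc13a3 values that chose the gene and were not tested.

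**Figure D2:**
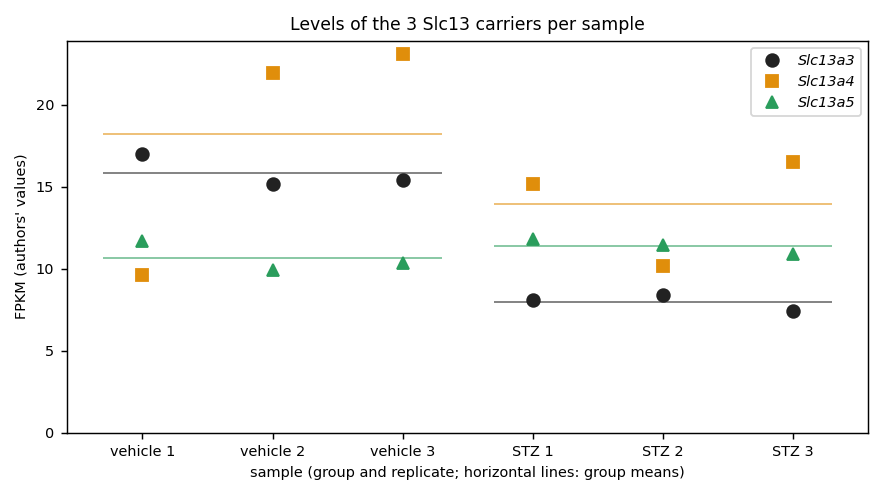
FPKM of Slc13a3, Slc13a4 and Slc13a5 (vertical axis) in each sample (horizontal axis), with horizontal lines at the group means. Slc13a3 lies above Slc13a5 in the 3 vehicle samples and below it in the 3 STZ samples, while Slc13a4 varies widely within both groups.

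Slc13a4 (NCBI gene 243755, chromosome 6, 35267953 to 35308126), the sulfate carrier, varied far more between samples of a group than its 2 relatives. It had 35.8, 81.3 and 85.8 CPM with vehicle and 53.7, 36.2 and 59.7 CPM with STZ. Vehicle replicate 1 and STZ replicate 2 were low and nearly level with each other, and the groups overlapped (log2 fold change -0.44, standard error 0.327; edgeR adjusted p = 0.634). With each sample left out, the log2 fold change ranged from -0.75 without vehicle replicate 1 to -0.24 without vehicle replicate 3, and the adjusted p from edgeR from 0.331 to 0.883. It was also smaller without STZ replicate 2 (-0.26).

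The levels of Slc13a4 went with those of the choroid plexus markers. For all 6 markers, including Ttr and Folr1, the lowest pair of samples was vehicle replicate 1 and STZ replicate 2 and the highest pair vehicle replicates 2 and 3, as for Slc13a4. The summed FPKM of the 6 markers put all 6 samples in the same order as Slc13a4. That sum is mostly Ttr, and taken singly 2 of the 6 markers had the full order. All 6 had a negative log2 fold change, against 48.1% of all tested genes, and 0 had an unadjusted edgeR p under 0.05. Their median log2 fold change was -0.38, beside -0.44 for Slc13a4. Of the 6 meningeal fibroblast markers, 5 shared the lowest sample of Slc13a4, 2 its highest pair, 0 its lowest pair and 0 the full order. As a share of the choroid plexus sum, Slc13a4 stood at 0.223%, 0.180% and 0.179% with vehicle and at 0.178%, 0.146% and 0.140% with STZ. The part of choroid plexus or meningeal fibroblast RNA in the Slc13a4 values was not tested.

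The summed astrocyte markers overlapped between the groups. Of the 8 markers, 5 had a negative log2 fold change, with a median of -0.11. An unadjusted edgeR p under 0.05 was found for 2 of the 8, both lower with STZ, against 11.3% of all tested genes. These were Aldh1l1, whose promoter drove the reporter (log2 fold change -0.22, adjusted p 0.398 from edgeR and 0.313 from DESeq2), and Aqp4. For Aqp4 the log2 fold change was -0.48, below the 1.5-fold threshold, with adjusted p 0.280 from edgeR and 0.0169 from DESeq2. The 6 endothelial markers together ranged from 13.3 to 45.9 FPKM with vehicle and from 40.0 to 84.0 FPKM with STZ. All 6 had a positive log2 fold change (median 1.14), 4 of them with an unadjusted edgeR p under 0.05, and 0 were called by edgeR or DESeq2. Of the 5 pericyte markers 4 had a positive log2 fold change (median 0.50), and Rgs5, with a log2 fold change of 1.02 and no overlap, was called by DESeq2 (adjusted p = 0.0283) and not by edgeR (adjusted p = 0.349). Relative to the summed astrocyte markers, Slc13a3 stood at 0.268%, 0.276% and 0.270% with vehicle and at 0.138%, 0.136% and 0.133% with STZ. These shares rest on the same Slc13a3 values that chose the gene, so their lack of overlap adds no support. The part of these marker differences in the level of Slc13a3 was not tested.

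**Figure D3:**
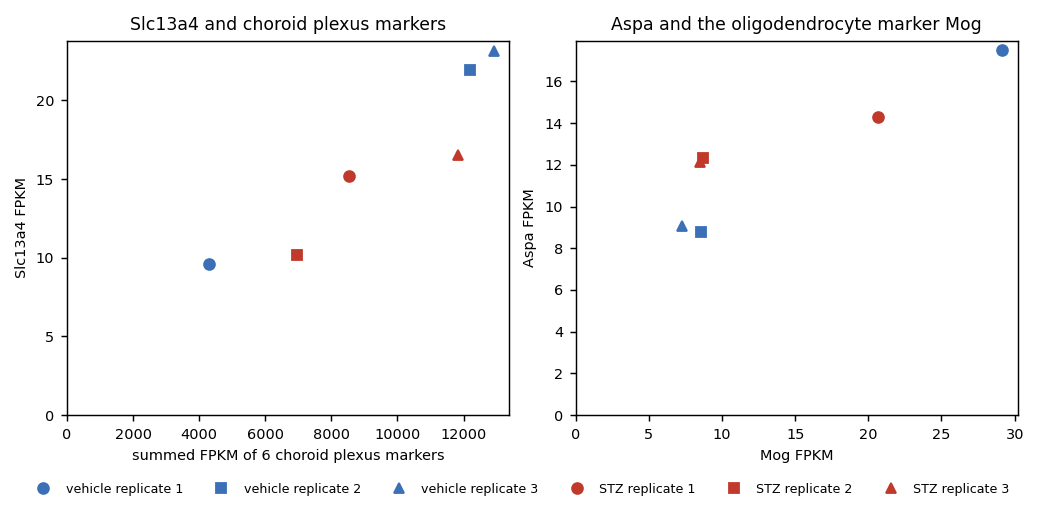
Left, FPKM of Slc13a4 against the summed FPKM of 6 choroid plexus markers in each sample. Right, FPKM of Aspa against that of the oligodendrocyte marker Mog, which was picked after its values were seen. Vehicle replicate 1 is lowest on both axes of the left plot, and vehicle replicate 1 and STZ replicate 1 are highest on both axes of the right plot.

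On the synthetic side, Nat8l (NCBI gene 269642, chromosome 5, 33995984 to 34005916), whose enzyme makes N-acetylaspartate, had 28.7, 24.0 and 21.8 CPM with vehicle and 20.99, 20.01 and 21.9 CPM with STZ. Vehicle replicate 3 lay just below STZ replicate 3, so the groups overlapped. The log2 fold change was -0.25 (standard error 0.118; edgeR adjusted p = 0.484). Without vehicle replicate 1, its highest sample, the log2 fold change was -0.13. The neuronal marker with the highest level, Stmn2, averaged 8.23 FPKM, above the 3.29 FPKM of Nat8l. The highest pair of samples by Nat8l was shared by 0 of the 7 neuronal markers, its lowest pair by 0 and its full order by 0. A full order of 6 samples is a strict measure, and 0 of the 10 oligodendrocyte markers shared that of Aspa. The part of neuronal RNA in the Nat8l values was not tested.

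The NAAG ligase genes differed in level, and the groups overlapped for both. Rimklb (NCBI gene 108653, chromosome 6, 122447296 to 122487062) had 41.3, 38.1 and 33.8 CPM with vehicle and 32.4, 33.8 and 34.7 CPM with STZ. The fold change of Rimklb on the log2 scale was -0.17 (standard error 0.0922; edgeR adjusted p = 0.532), and -0.10 without vehicle replicate 1. The pseudogene Rps27a-ps3 lies within it, with reads amounting to 11.3% of those of Rimklb. Rimkla (NCBI gene 194237, chromosome 4, 119465283 to 119492598) was the scarcest of the set, with 225, 286 and 296 counts in the vehicle samples and 268, 284 and 259 in the STZ samples. Its log2 fold change was -0.12 (standard error 0.181; edgeR adjusted p = 0.839), with values from -0.23 to -0.05 when each sample was left out. Rimklb exceeded Rimkla in every sample, by between 3.95 and 5.83 times in FPKM, and this ratio overlapped between the groups.

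At the astrocyte surface, Folh1 (NCBI gene 53320, chromosome 7, 86716525 to 86776053), the peptidase that releases glutamate from NAAG, had 142, 120 and 124 CPM with vehicle and 129, 130 and 143 CPM with STZ. The groups overlapped, and the log2 fold change of 0.06 (standard error 0.0864; edgeR adjusted p = 0.833) changed sign without vehicle replicate 2. Grm3 (NCBI gene 108069, chromosome 5, 9485236 to 9725352), the receptor on which NAAG acts, had 529, 464 and 499 CPM with vehicle and 310, 400 and 440 CPM with STZ. Every STZ sample was below every vehicle sample, although STZ replicate 3 came within reach of vehicle replicate 2. The log2 fold change of Grm3 was -0.38 (standard error 0.133). Its unadjusted p was 0.0235 and its adjusted p 0.379 from edgeR, so the gene did not pass the test. Without STZ replicate 1, its lowest sample, the log2 fold change was -0.24.

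The receptor and the peptidase were also set against each other within a sample. Grm3 divided by Folh1 (in FPKM) was 3.55, 3.69 and 3.87 in the vehicle samples and 2.35, 2.96 and 3.09 in the STZ samples, without overlap. This ratio was not tested, and neither of its genes was called. Of all tested genes taken singly, 18.5% had groups that did not overlap. Relative to the summed astrocyte markers, Grm3 stood at 2.16%, 2.21% and 2.28% with vehicle and at 1.45%, 1.76% and 2.11% with STZ. Folh1 ranged there from 0.590% to 0.608% with vehicle and from 0.593% to 0.684% with STZ. Grm2, the other group II metabotropic glutamate receptor gene, had between 0 and 24 counts per sample, and Grm3 between 18784 and 28590.

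Aspa (NCBI gene 11484, chromosome 11, 73304987 to 73326876), which breaks N-acetylaspartate into acetate and aspartate, had 28.7, 14.3 and 14.9 CPM with vehicle and 22.5, 19.4 and 19.4 CPM with STZ. All STZ samples fell between the lowest and the highest vehicle sample, and the log2 fold change was 0.08 (standard error 0.261; edgeR adjusted p = 0.931). Its sign turned without vehicle replicate 2 (-0.11) and without vehicle replicate 3 (-0.09), and without vehicle replicate 1 the value was 0.479. Vehicle replicate 1 and STZ replicate 1 had the highest Aspa, and the same pair of samples was highest for all 10 oligodendrocyte markers. Its lowest pair was shared by 5 of the 10, its lowest sample by 3 and its full order by 0. Mog, a myelin gene named after its values were seen, had 29.1, 8.59 and 7.29 FPKM with vehicle and 20.7, 8.71 and 8.48 with STZ. Mbp, another of the 10, had 136, 55.3 and 58.1 FPKM with vehicle and 617, 79.1 and 120.8 with STZ. Among these markers 6 had a negative and 4 a positive log2 fold change (median -0.21). As a share of their summed FPKM, Aspa stood at 2.02%, 2.35% and 2.59% with vehicle and at 1.13%, 2.68% and 2.45% with STZ. The part of oligodendrocyte RNA in the Aspa values was not tested.

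**Figure D4:**
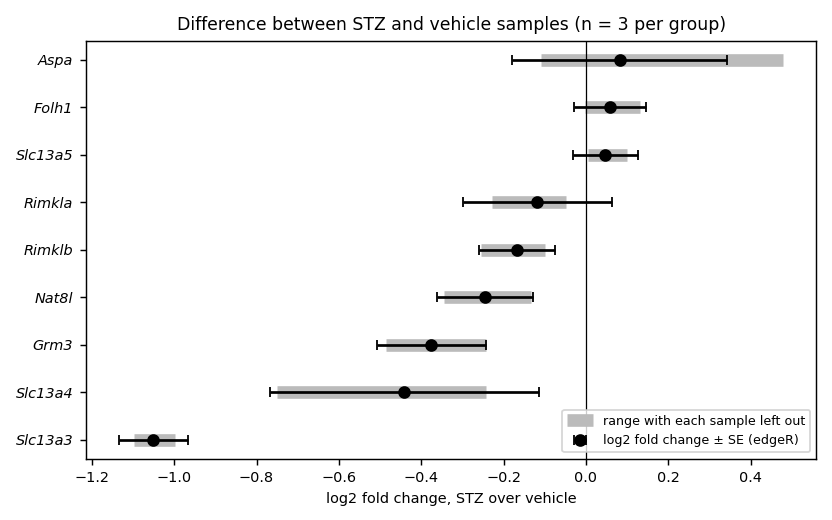
Log2 fold change of STZ over vehicle for the 9 genes (points, with bars of ± 1 standard error from edgeR) and the range of the value when each of the 6 samples is left out in turn (grey). Slc13a3 lies near -1.05 with a narrow range, and Aspa has the widest range, from -0.11 to 0.479.

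Across the 9 genes, 3 had a positive and 6 a negative log2 fold change, with a median of -0.17 against 0.01 over all genes tested. By size alone the median absolute log2 fold change was 0.166, and 0.173 over all genes tested. Groups did not overlap for 2 of the 9, both lower in STZ, where 18.5% of all tested genes had groups that did not overlap (9.85% lower and 8.64% higher with STZ). At an unadjusted p under 0.05 there were again 2 of the 9 genes, against a background of 11.3%. The contrast had been used to choose the set, so these counts are given for reference only. The 8 genes other than Slc13a3 were not called, with adjusted p-values from edgeR between 0.379 and 0.931 and from DESeq2 between 0.184 and 0.948.

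The genes around this pathway were read from lists of 31 genes, of which 27 had a count in every sample. EdgeR and DESeq2 each called 0 of the 27 in either direction, where 0.0224% and 1.05% of all tested genes were called. An unadjusted edgeR p under 0.05 was found for 5 of the 27, all lower in STZ, against 11.3% of all tested genes in either direction. A negative log2 fold change was found for 20 of the 27, against 48.1% of all tested genes. Slc13a1 and Slc13a2, the other members of the carrier family, were hardly detected, with at most 2 and 15 counts in a sample, and were not tested.

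Of the 8 genes that handle citrate and acetate on their way to acetyl-CoA, 7 had a negative log2 fold change, with a median of -0.14. Citrate synthase Cs, the cytosolic isocitrate dehydrogenase Idh1 and the mitochondrial acetyl-CoA synthetase Acss1, the most abundant of these, had log2 fold changes of -0.09, 0.04 and -0.15. Acly, which splits cytosolic citrate, and Acss2, which activates acetate, were singled out after their values were seen. The vehicle samples had 34.0, 31.7 and 29.98 FPKM of Acly, and the STZ samples 24.9, 26.2 and 23.5. For Acss2 the vehicle samples had 77.4, 72.6 and 68.1 FPKM, and the STZ samples 48.5, 59.8 and 57.8. For neither gene did the groups overlap, where 18.5% of all tested genes had no overlap in CPM (9.85% lower with STZ). Their log2 fold changes were -0.42 and -0.45, below the 1.5-fold threshold, with edgeR adjusted p-values of 0.189 and 0.256 and DESeq2 adjusted p-values of 0.00843 and 0.0246.

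All 7 genes of the malate-aspartate shuttle, which supplies cytosolic aspartate, had negative log2 fold changes, from -0.26 to -0.07, and 0 had an unadjusted p under 0.05. The malate dehydrogenases Mdh1 and Mdh2 and the oxoglutarate carrier Slc25a11, its most abundant members, had log2 fold changes of -0.26, -0.08 and -0.09. Of the genes for dicarboxylate use and exchange, the succinate dehydrogenase subunits Sdha and Sdhb had log2 fold changes of -0.23 and 0.01, and the mitochondrial dicarboxylate carrier Slc25a10 had 0.03. Among the relatives of the NAAG enzymes, the aminoacylase genes Acy1 and Acy3 had -0.13 and 0.50, and Slc17a5, the sialin gene whose product loads NAAG into vesicles, had 0.11.

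**Figure D5:**
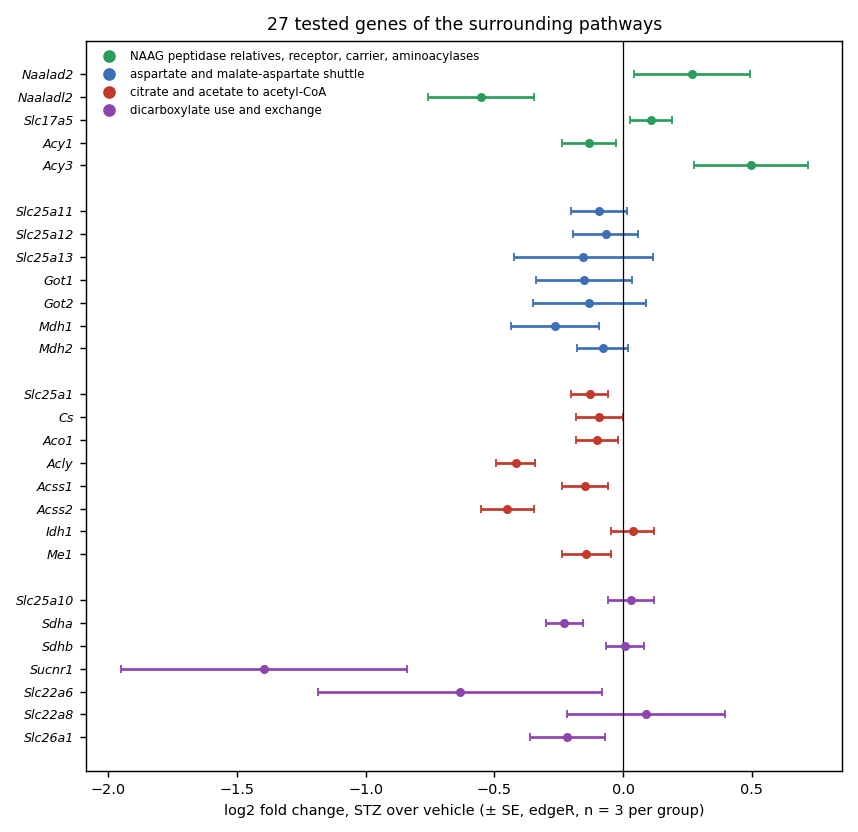
Log2 fold change of STZ over vehicle (horizontal axis, bars of ± 1 standard error from edgeR, n = 3 per group) for the 27 tested genes of the surrounding pathways, colored by list. Of these genes 20 lie to the left of 0, and none passed the adjusted threshold.

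To see which genes moved like Slc13a3, its normalized log2 CPM was correlated over the 6 samples with 12319 genes of at least 5 CPM on average. The 5 closest were Slc39a7, Serpinh1, Klhdc7a, Tmem260 and Dnajc14, with Pearson r between 0.995 and 0.9999. The points share the step between the groups, so r mostly measures that step and says nothing of its size. Slc39a7, a zinc carrier of the endoplasmic reticulum, averaged 232 CPM ± 2.19 in the vehicle group and 209 CPM ± 1.97 in the STZ group (SD, n = 3), with a log2 fold change of -0.15. Serpinh1, the collagen chaperone, averaged 168 CPM ± 9.57 in the vehicle group and 99.8 CPM ± 1.60 in the STZ group (SD, n = 3), with a log2 fold change of -0.76. The other 3 had log2 fold changes from -0.40 to -0.28. On log2(TPM + 0.1), 1 of these 5 genes, Serpinh1, was again among the 5 closest.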

How the data were processed

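Reads of 6 samples (3 vehicle, 3 STZ) were aligned to mm10 with HISAT2 and quantified with StringTie. The submitters' processing notes list HISAT2 2.1.0, StringTie 2.1.3b, Trimmomatic 0.38 and SAMtools 1.9. The labels name a SMART-Seq mRNA kit, and the study's methods also name a TruSeq kit. The authors deposited raw read counts for each gene as whole numbers. How StringTie coverage became counts is not given in the sources used here, and neither is the annotation release. The FPKM and TPM values were made by the authors from the same reads. The study's removal of outlier genes is not described and was not repeated.

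Genes with a count in every sample (22337 of 45777) entered a two-sided quasi-likelihood test (edgeR 4.0.16, run in R 4.3.3) with TMM normalization, treatment as the sole factor and Benjamini-Hochberg adjustment over all of them. Calls needed an adjusted p below 0.05 together with a change of more than 1.5-fold. CPM values are TMM-normalized. P-values measure the spread between 3 pools per group. Alternatives were DESeq2 1.42.0, limma 3.58.1 on log2(TPM + 1) and log2(TPM + 0.1), DESeq2's size factors, other filters, robust fitting, the replicate block and leaving out each sample. The fits were tested on simulated data. Positions are those of RefSeq GRCm38.p6, matched by NCBI gene number for all 9 genes. No pair of samples in a group agreed within counting noise (chi-square of 17.2 to 68.6 for each gene).

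The genes, the pathway lists and the marker lists were chosen with earlier results of these data known. The named genes are the 9 genes, the 3 most abundant and any called genes of each pathway list, the 5 genes closest to Slc13a3, and the leading markers of each cell type. Acly, Acss2, Sucnr1, Naaladl2, Grm2, Mog, Mbp, Aldh1l1, Aqp4, Folr1 and Rgs5 were named in addition, after their values were seen. Other experiments of the study were not analysed here, and 1 gene of the pathway lists and 1 of the marker lists are not reported here.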

Additional observations from a re-analysis of the deposited data

How the results depend on the processing

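The count of genes called between STZ and vehicle depended on the tool. It was 5 with edgeR and 234 (146 higher and 88 lower) with DESeq2, 10 with robust fitting, and 0 with limma on log2(TPM + 1) and on log2(TPM + 0.1), where 2635 and 2612 genes had an unadjusted p under 0.05. With each sample left out in turn edgeR called between 0 and 1 genes, with 1704 to 2802 at an unadjusted p under 0.05. Blocking on the replicate number left 0 genes called by edgeR, 1793 having an unadjusted p below 0.05. DESeq2 with the replicate block, an alternative chosen after seeing the data, called 124. Same-numbered samples are different pools of mice. Their deviations from the group means had correlations of -0.101, -0.162 and -0.184, which gave no sign of pairing by number. Whether same-numbered pools were processed together is not given in the sources used here, and a shared batch was not tested.

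Of the 9 genes, Slc13a3 alone was called with edgeR, and it was also called under both DESeq2 fits, DESeq2's size factors, both other filters, robust fitting, no minimum fold change, and with overlapping genes' counts added (chosen after seeing the data). The number of the 9 genes called was 0 with both limma fits (Slc13a3 adjusted p 0.0827 and 0.0688), 0 with the replicate block, and 0 to 0 with each sample left out, and the cause was not tested. The log2 fold change of Slc13a3 was negative in all 16 alternative fits, from -1.098 to -0.997, and those of Slc13a4, Nat8l, Rimkla, Rimklb and Grm3 were also negative in all 16. That of Slc13a5 was positive in all 16. The value of Aspa reversed to -0.11 and -0.09 without vehicle replicates 2 and 3, within a range of -0.11 to 0.479 over the samples left out, and that of Folh1 to -0.0028 without vehicle replicate 2 (range -0.0028 to 0.13). The order of the 9 levels was the same in FPKM and TPM. Rimkla, with 225 to 296 counts, had the least depth.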

Other observations

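2 genes near this pathway were singled out after their values were seen, each with an unadjusted edgeR p under 0.05. Sucnr1, the receptor for extracellular succinate, had 8, 21 and 25 counts in the vehicle samples and 3, 8 and 11 in the STZ samples. The groups overlapped, and its log2 fold change was -1.40 (standard error 0.556; edgeR adjusted p = 0.415). Naaladl2, a relative of the NAAG peptidase gene, had 214, 219 and 297 counts in the vehicle samples and 184, 153 and 204 in the STZ samples. Its log2 fold change was -0.55 (standard error 0.207; edgeR adjusted p = 0.400), and neither gene passed the test.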
